A study of Mus musculus with 16 samples.

Results

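The 8 genes described here are Ltn1, Ttc3, Usp16, Usp25, Cct8, Hspa13, Dnajc28 and Psmg1, which act on ubiquitin or on protein folding and lie together in the part of mouse chromosome 16 that Dp16 mice carry in an additional copy. They were picked by symbol, by what they do and where they lie, from the 55385 genes of the count table, and all 8 were among the 16684 genes that passed the filter on low counts. Polyadenylated RNA of the hippocampus was sequenced in 4 groups of 4 libraries, from mice at 5 months of age. 5xFAD-Dp16 mice carried both the 5xFAD transgenes and the duplication, 5xFAD mice the transgenes alone, Dp16 mice the duplication alone, and wild-type C57BL/6J mice neither. The 5xFAD-Dp16 libraries were all from males, and each other group had 2 libraries from males and 2 from females. The 5xFAD transgenes encode human amyloid precursor protein and presenilin 1 with mutations of familial Alzheimer disease and are driven by the Thy1 promoter, which is active mainly in neurons. Since the labels do not state outright that each library is a separate animal, p-values cover only how these libraries varied.

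Cells mark faulty or unneeded proteins with ubiquitin, a small protein that ligases attach and deubiquitinases remove, and the proteasome degrades what is marked. Chaperones bind new or damaged chains and help them to fold before that point is reached. Neurons do not divide and cannot dilute misfolded protein, which is why both systems are much studied in Alzheimer disease and in Down syndrome, where human chromosome 21 carries the counterparts of these genes.

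Mice with the duplication have 3 copies of each of the 8 genes, against 2 copies in mice without it, a copy ratio of 1.5. Between Lipi and Zbtb21, the ends taken for the segment (GRCm38 chr16:75540514-97962622), the annotation holds 147 protein-coding genes, of which 90 were tested. Ltn1, Usp16 and Cct8 are near neighbours. Cct8 and Usp16 lie on opposite strands with their ends overlapping over 192 exon bases, and Ttc3 shares 326 exon bases with Pigp on the opposite strand. The libraries were strand-specific, but how the counting treated strand is not stated, so how reads in those bases were assigned is not known. Usp16 had 5778 counts over all libraries and Cct8 72600, so any reads given to the wrong gene would weigh more on Usp16.

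The sequences upstream of the gene starts are shown because these genes share their change in copy number but not their start regions. RefSeq (GRCm38.p6) windows of 250 bases before the start were matched for 7 of the 8 genes, all but Hspa13. The 4 printed in full hold at most 27 bases of annotated exon; capitals mark a CCAAT box (here read on the other strand as ATTGG), a GC box (GGGCGG) or an ETS site (CCGGAAG), and the Dnajc28 window has none of the motifs searched.
Ltn1, chr16:87432607-87432856, minus strand: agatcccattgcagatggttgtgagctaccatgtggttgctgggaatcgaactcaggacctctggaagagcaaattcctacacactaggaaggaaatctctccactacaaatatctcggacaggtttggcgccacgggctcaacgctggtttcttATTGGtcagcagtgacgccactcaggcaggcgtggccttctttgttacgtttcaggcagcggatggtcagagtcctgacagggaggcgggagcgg
Cct8, chr16:87495870-87496119, minus strand: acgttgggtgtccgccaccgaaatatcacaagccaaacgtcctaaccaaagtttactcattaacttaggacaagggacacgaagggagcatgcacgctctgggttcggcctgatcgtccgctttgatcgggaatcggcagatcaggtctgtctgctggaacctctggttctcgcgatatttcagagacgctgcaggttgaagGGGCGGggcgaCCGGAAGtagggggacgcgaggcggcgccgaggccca
Psmg1, chr16:95990961-95991210, minus strand: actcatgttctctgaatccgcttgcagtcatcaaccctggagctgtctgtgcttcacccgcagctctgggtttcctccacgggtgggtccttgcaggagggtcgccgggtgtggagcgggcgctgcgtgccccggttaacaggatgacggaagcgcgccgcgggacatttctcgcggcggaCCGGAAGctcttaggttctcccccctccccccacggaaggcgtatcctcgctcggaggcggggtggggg
Dnajc28, chr16:91619000-91619249, minus strand: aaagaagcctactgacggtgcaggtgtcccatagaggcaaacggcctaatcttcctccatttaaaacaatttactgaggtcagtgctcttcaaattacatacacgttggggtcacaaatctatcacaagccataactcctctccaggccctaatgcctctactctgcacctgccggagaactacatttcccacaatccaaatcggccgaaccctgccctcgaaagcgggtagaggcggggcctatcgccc
Usp16, chr16:87454955-87454984, plus strand: ttcccacaatgccgcgTTCCGGAAGttgcc

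The windows of Usp16 and Usp25 lie wholly in annotated exon, within the gene spans given here, and that of Ttc3 holds 121 exon bases. The Usp16 line shows the last 30 bases of its window, which are thus exon in the annotation used for the counts, and where an inverted heat shock element (TTCNNGAA) and an ETS site overlap. On either strand, CCGGAAG was found in 3 of the 7 windows (Cct8, Psmg1 and Usp16) and in 6.91% of 32841 RefSeq windows of the same length, and TTCNNGAA in 1 of 7 and in 7.17%. CCAAT was found in 2 of 7 (Ltn1 and Ttc3) and in 33.9% of all windows, GGGCGG in 2 of 7 (Cct8 and Ttc3) and in 32.7%, and GCATGCGC, the NRF1 site, in 1 of 7 (Ttc3) and in 2.26%. TATAAA, GAANNTTC, TGACGTCA and the endoplasmic reticulum stress element were in 0 of 7 windows, and in 12.4%, 6.7%, 1.55% and 0.113% of all. These matches describe letters and are not shown to be sites.

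The libraries held between 15838097 and 25037769 counts, and the 8 genes had between 150 and 36466 counts in each. App, a gene of the segment outside the 8, averaged 2961 ± 269 CPM in 5xFAD-Dp16 and 1827 ± 122 CPM in 5xFAD hippocampi, and 3139 ± 95.8 CPM in Dp16 and 2033 ± 236 CPM in wild-type hippocampi (SD, n = 4 each; CPM, library-scaled counts per 1e6). Cst7, a gene of plaque-associated microglia, averaged 27.0 ± 5.13 CPM in 5xFAD-Dp16, 44.5 ± 16.3 CPM in 5xFAD, 0.182 ± 0.171 CPM in Dp16 and 0.158 ± 0.116 CPM in wild-type hippocampi. All 12 genes of a hippocampus list were detected, but their summed level was uneven: it ranged over 1306 to 2479 CPM in 5xFAD-Dp16, 1275 to 2018 CPM in 5xFAD, 1757 to 2433 CPM in Dp16 and 915 to 2453 CPM in wild-type libraries. A list of 15 midbrain and hypothalamus genes, of which 8 were tested, summed to 8.67 to 101 CPM, 9.85 to 403 CPM, 6.05 to 12.2 CPM and 8.67 to 292 CPM in the same 4 groups, and no gene of either list was at 0 in every library. The libraries low in hippocampus genes were 5xFAD-Dp16 replicate 3, 5xFAD replicates 2 and 4 and wild-type replicate 4, with mean z-scores over the hippocampus list of -1.04, -1.08, -0.77 and -2.32. Values without them are given where they change a result.

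All 8 genes were higher in hippocampi with the duplication than in those without it, by 1.27-fold to 1.58-fold, when the difference was averaged over mice with and without the 5xFAD transgenes. 5 of them passed the test: Dnajc28, Usp25, Ltn1, Cct8 and Ttc3. Hspa13, Psmg1 and Usp16 had smaller differences and did not pass. At an adjusted p under 0.05 over all genes, 0.21% of the genes tested were called higher in carriers. The 95% interval of each of the 8 held 1.5-fold and left out no change. In bulk tissue, fewer cells of a type and less RNA per cell cannot be told apart.

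The ligases come first. Ltn1 (ENSMUSG00000052299.9, GRCm38 chr16:87376651-87432612, minus strand) encodes listerin, the ligase that ubiquitinates unfinished chains on ribosomes that have stalled. It had 70.8, 73.5, 54.6 and 59.7 CPM in the 4 5xFAD-Dp16 libraries, against 48.3, 47.5, 45.2 and 40.5 CPM in the 4 5xFAD libraries. In Dp16 it had 76.1, 72.5, 73.2 and 63.9 CPM, against 43.6, 44.8, 49.7 and 39.3 CPM in wild-type. Every library with the duplication was above every library without it. The pooled difference was 0.60 ± 0.08 (log2, SE), a 1.51-fold higher level, with an adjusted p of 0.00204 in edgeR's quasi-likelihood test with Benjamini-Hochberg adjustment.

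Ttc3 (ENSMUSG00000040785.19, chr16:94370618-94469343, plus strand) encodes a RING ligase that ubiquitinates the kinase Akt in human cells. Its level was 1394, 1361, 1365 and 1349.8 CPM in 5xFAD-Dp16, against 937, 970.1, 919.9 and 1007 CPM in 5xFAD. Dp16 libraries held 1408, 1479.8, 1435 and 1484 CPM, against 1008, 933, 989.7 and 1104 CPM in wild-type. The groups with the duplication lay wholly above those without it, and among the 8 genes its pooled difference had the smallest SE. It was 0.52 ± 0.06 (log2, SE), or 1.43-fold, with an edgeR adjusted p of 0.000633.

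Of the deubiquitinases, Usp16 (ENSMUSG00000025616.14, chr16:87454703-87483517, plus strand) removes ubiquitin from histone H2A. It had 21.8, 19.5, 28.8 and 23.1 CPM in 5xFAD-Dp16, against 13.8, 16.1, 17.9 and 21.7 CPM in 5xFAD. In Dp16 the values were 16.2, 14.8, 15.5 and 22.0 CPM, against 12.9, 13.9, 13.5 and 17.3 CPM in wild-type. Both pairs of groups overlapped, and of the 8 genes Usp16 had the smallest pooled difference, 0.35 ± 0.12 (log2, SE; 95% interval 0.09 to 0.61; adjusted p = 0.879 in edgeR).

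Usp25 (ENSMUSG00000022867.11, chr16:77013706-77116780, plus strand) trims ubiquitin chains and is known from innate immune signalling and from the degradation of proteins of the endoplasmic reticulum. It was at 68.3, 67.5, 57.2 and 59.0 CPM in 5xFAD-Dp16, against 46.6, 41.6, 46.2 and 33.0 CPM in 5xFAD. The Dp16 libraries had 68.8, 59.5, 67.4 and 59.6 CPM, against 39.8, 47.4, 46.4 and 34.0 CPM in wild-type. No library with the duplication fell to the level of one without it. Usp25 rose by 0.61 ± 0.09 (log2, SE), or 1.52-fold (edgeR adjusted p = 0.00669).

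Among the chaperones, Cct8 (ENSMUSG00000025613.13, chr16:87483326-87495873, minus strand) encodes the theta subunit of TRiC, the ring-shaped chaperonin that folds actin and tubulin. Its values were 269, 257, 288 and 260.5 CPM in 5xFAD-Dp16, against 164, 186, 183 and 213 CPM in 5xFAD. In Dp16 they were 246, 274, 279 and 279 CPM, against 172, 173, 170.5 and 218 CPM in wild-type. The groups did not overlap, although wild-type replicate 4 stood well above the other 3 wild-type libraries. The pooled difference was 0.54 ± 0.08 (log2, SE), or 1.45-fold (edgeR adjusted p = 0.00317).

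Hspa13 (ENSMUSG00000032932.15, chr16:75745431-75767104, minus strand) encodes a microsome-associated member of the Hsp70 family. It had 67.1, 73.6, 79.1 and 82.4 CPM in 5xFAD-Dp16, against 48.4, 55.0, 52.3 and 67.4 CPM in 5xFAD. Dp16 had 70.1, 80.6, 74.7 and 80.7 CPM, against 43.8, 48.8, 52.3 and 69.3 CPM in wild-type. Dp16 lay above wild-type in every library, while 5xFAD replicate 4 reached into the 5xFAD-Dp16 range by a narrow margin. The pooled difference of 0.48 ± 0.10 (log2, SE; 95% interval 0.27 to 0.69) did not pass (edgeR adjusted p = 0.0906). Without wild-type replicate 4 it was 0.54 with an adjusted p of 0.00343, and without 5xFAD replicate 4 it was 0.56 with an adjusted p of 0.0174. These are the wild-type and the 5xFAD library with the highest Hspa13 level, and both are low in hippocampus genes.

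Dnajc28 (ENSMUSG00000039763.10, chr16:91614254-91619026, minus strand) carries a J domain, the part by which such proteins stimulate Hsp70 chaperones. Its level was 20.8, 19.3, 22.9 and 23.2 CPM in 5xFAD-Dp16, against 12.8, 14.5, 12.8 and 14.2 CPM in 5xFAD. In Dp16 it was 25.3, 26.1, 24.2 and 24.9 CPM, against 14.02, 16.1, 18.1 and 15.6 CPM in wild-type. All carriers lay above all non-carriers, and both among carriers and among non-carriers the group with the 5xFAD transgenes had the lower mean. Its upstream window, printed above, held none of the motifs searched. Dnajc28 had the largest pooled difference of the 8, 0.66 ± 0.07 (log2, SE), or 1.58-fold (edgeR adjusted p = 0.000418).

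Psmg1 (ENSMUSG00000022913.16, chr16:95979933-95990960, minus strand) encodes a chaperone that, paired with Psmg2, assembles the ring of alpha subunits of the 20S proteasome. It had 15.6, 15.1, 18.4 and 18.1 CPM in 5xFAD-Dp16, against 9.58, 12.03, 12.3 and 16.7 CPM in 5xFAD. In Dp16 it had 13.995, 17.5, 17.6 and 17.4 CPM, against 11.2, 11.5, 10.2 and 15.8 CPM in wild-type. In each pair, 1 library without the duplication reached into the range of those with it. The pooled difference was 0.41 ± 0.12 (log2, SE; 95% interval 0.14 to 0.67; edgeR adjusted p = 0.632).

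**Figure D1:**
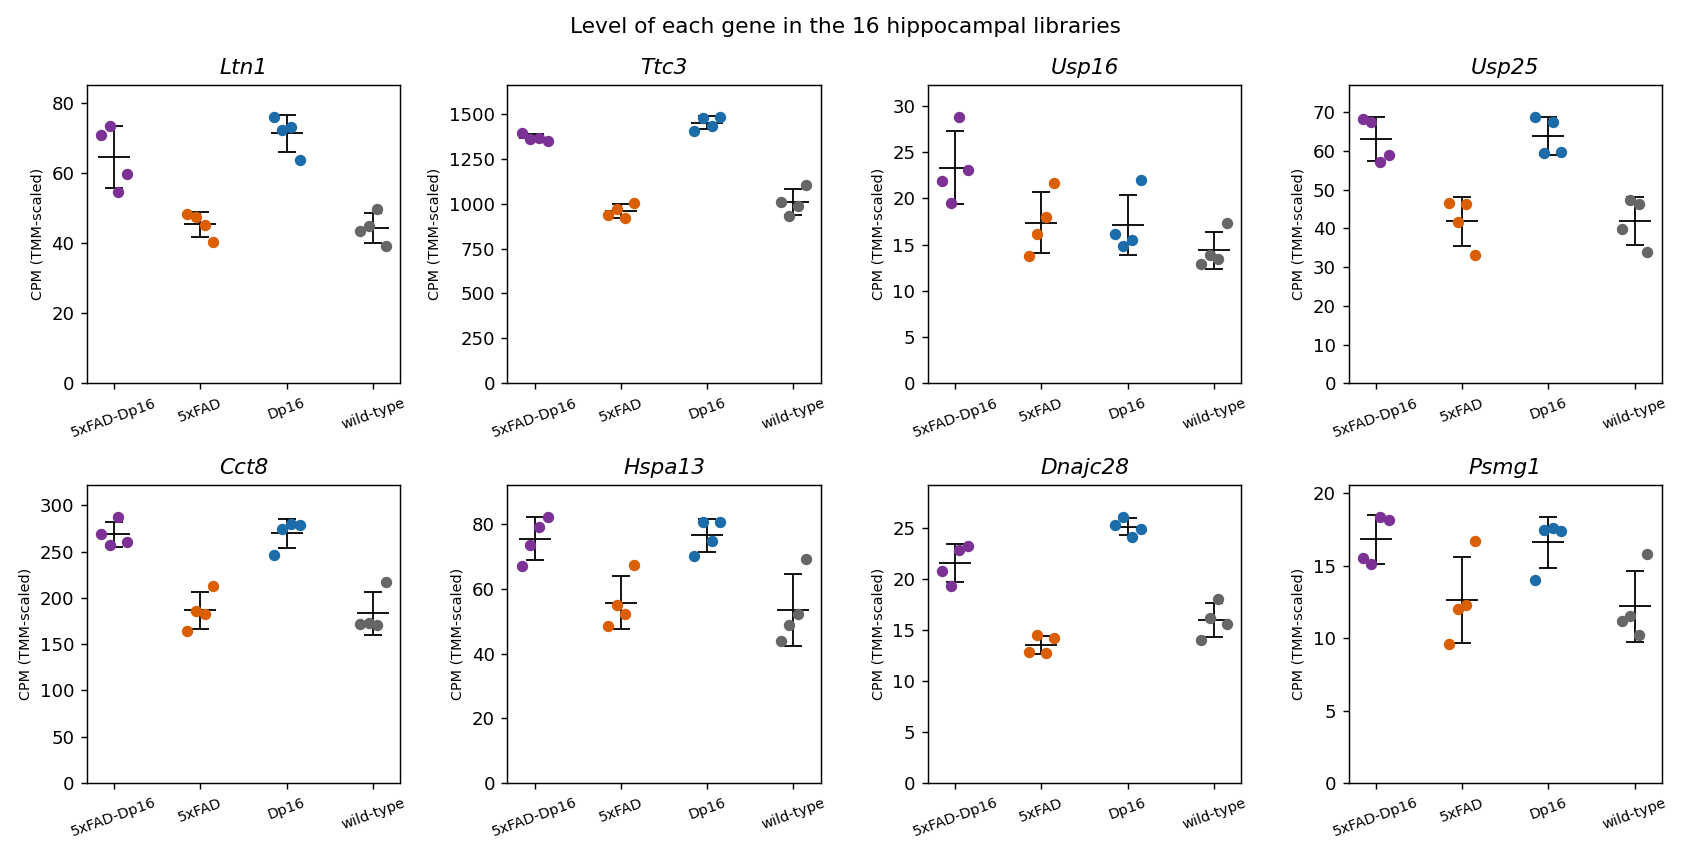
Level of each of the 8 genes in CPM (linear axis from 0) in the 16 libraries, by group; each point is a library, the long bar the group mean and the short bars 1 SD on either side. For Ltn1, Ttc3, Usp25, Cct8 and Dnajc28 all libraries of 5xFAD-Dp16 and Dp16 lie above all libraries of 5xFAD and wild-type, while for Usp16, Hspa13 and Psmg1 the ranges overlap.

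In 5 of the 8 genes, each of the 8 libraries with the duplication lay above each of the 8 without it, which was the case for 0.18% of all genes tested. All 8 had an unadjusted p under 0.05 and were higher in carriers, against 2.03% of all genes. The calls of Ltn1, Ttc3, Usp25, Cct8 and Dnajc28 held when any single library was left out. In the 10 libraries from males alone the call of Cct8 remained (0.58, adjusted p = 0.0434 in edgeR). Those of Ltn1, Ttc3, Usp25 and Dnajc28 ended, with edgeR adjusted p of 0.114, 0.0730, 0.209 and 0.0611.

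The differences of the 8 genes were much like those of the rest of the segment. Their median was 1.44-fold, against 1.46-fold over the other 82 protein-coding genes tested there. The middle part of those 82, from the first to the third quartile, lay between 1.35-fold and 1.55-fold. Of the 82, 27 were called higher and all 82 had a positive difference. Outside the segment, 404 genes of chromosome 16 were tested, and their median log2 difference was -0.01, the same as over all genes. Ranked from the largest pooled difference down among the 90 genes of the segment, Dnajc28 stood at 15, Usp25 at 26, Ltn1 at 28, Cct8 at 46, Ttc3 at 53, Hspa13 at 57, Psmg1 at 69 and Usp16 at 78. Ltn1, Usp16 and Cct8, which lie close together with Rwdd2b (rank 67) between Ltn1 and Usp16, took ranks 28, 78 and 46.

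**Figure D2:**
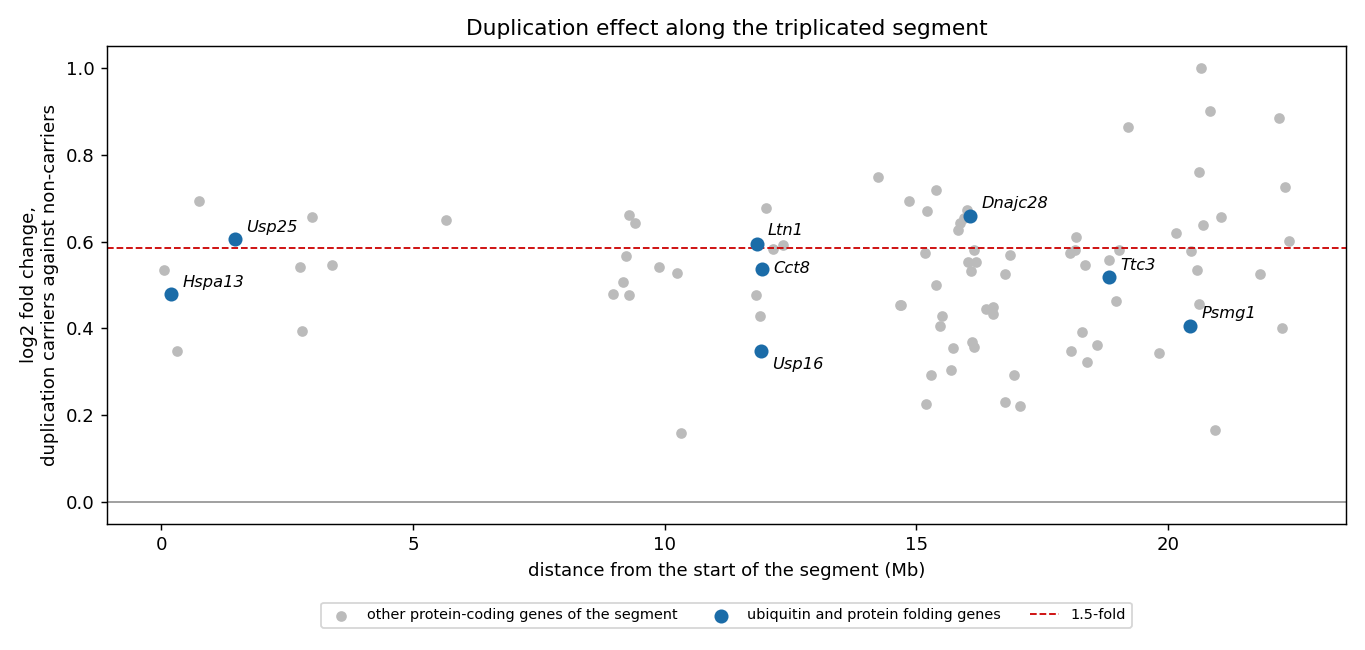
Pooled log2 difference between duplication carriers and non-carriers (vertical axis) of the 90 tested protein-coding genes of the segment against distance from its start in megabases (horizontal axis); large points are the 8 genes, small points the other 82, and the dashed line marks 1.5-fold. All points lie above 0, and the 8 genes spread from 0.35 (Usp16) to 0.66 (Dnajc28) within the range of the others.

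Without the 5xFAD transgenes, Dp16 hippocampi had higher levels than wild-type for Ltn1 (0.69 ± 0.11, adjusted p = 0.0212 in edgeR), Ttc3 (0.53 ± 0.08, adjusted p = 0.0212) and Dnajc28 (0.66 ± 0.10, adjusted p = 0.0194; log2 with SE throughout). These 3 of 8 compare with 0.0839% of all genes called in this comparison, and with 10 of the other 82 protein-coding genes of the segment. An unadjusted p under 0.05 was reached by 7 of the 8, against 1.5% of all genes in the same direction. The libraries of the 2 groups did not overlap in 6 of the 8 genes, against 1.37% of all genes; Usp16 and Psmg1 were the exceptions. Among the genes not called, Usp25 was at 0.61 (95% interval 0.34 to 0.88), Cct8 at 0.56 (0.34 to 0.78), Hspa13 at 0.52 (0.23 to 0.80) and Psmg1 at 0.44 (0.08 to 0.80). Usp16, at 0.25, had the only interval of the 8 that held no change (-0.11 to 0.61).

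The calls in Dp16 against wild-type rested on few libraries. No gene of the 8 passed without wild-type replicate 1, without wild-type replicate 2, or without any one of Dp16 replicates 1, 2 and 3, and 1 passed without Dp16 replicate 4. Leaving out single libraries moved the edgeR adjusted p of Ltn1 between 0.0137 and 0.130, that of Ttc3 between 0.0130 and 0.126 and that of Dnajc28 between 0.0137 and 0.111.

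On the background of the 5xFAD transgenes, Dnajc28 alone passed between 5xFAD-Dp16 and 5xFAD hippocampi (0.66 ± 0.11 log2, adjusted p = 0.0405 in edgeR), against 0.0539% of all genes. The other 7 were higher too, from 0.37 for Psmg1 to 0.61 for Usp25, and 7 of the 8 had an unadjusted p under 0.05, against 1.49% of all genes in the same direction. In 5 of the 8 the groups had no overlap, against 1.33% of all genes. Of the other 82 protein-coding genes tested in the segment, 7 were called higher here. Dnajc28 remained called when wild-type replicate 3 (edgeR adjusted p = 0.0333) or wild-type replicate 4 (0.0460) was left out, and lost its call when any of the other 14 libraries was, with an adjusted p of up to 0.265. Usp16 was at 0.45 (95% interval 0.07 to 0.83) and Ltn1 at 0.50 (0.25 to 0.76).

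Whether the effect of the duplication depended on the 5xFAD transgenes was tested as an interaction. None of the 8 genes and 0% of all genes passed in edgeR; 332 genes (1.99%), and none of the 8, had an unadjusted p under 0.05, and DESeq2 called 5 genes, again none of the 8. The difference between the effects ran from -0.18 for Ltn1 (95% interval -0.53 to 0.16) to 0.19 for Usp16 (-0.33 to 0.72). For Dnajc28 it was 0.01 (-0.30 to 0.32) and for Ttc3 -0.01 (-0.27 to 0.25). The interval of each gene but Usp16 left out a further 1.5-fold higher effect with the transgenes.

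**Figure D3:**
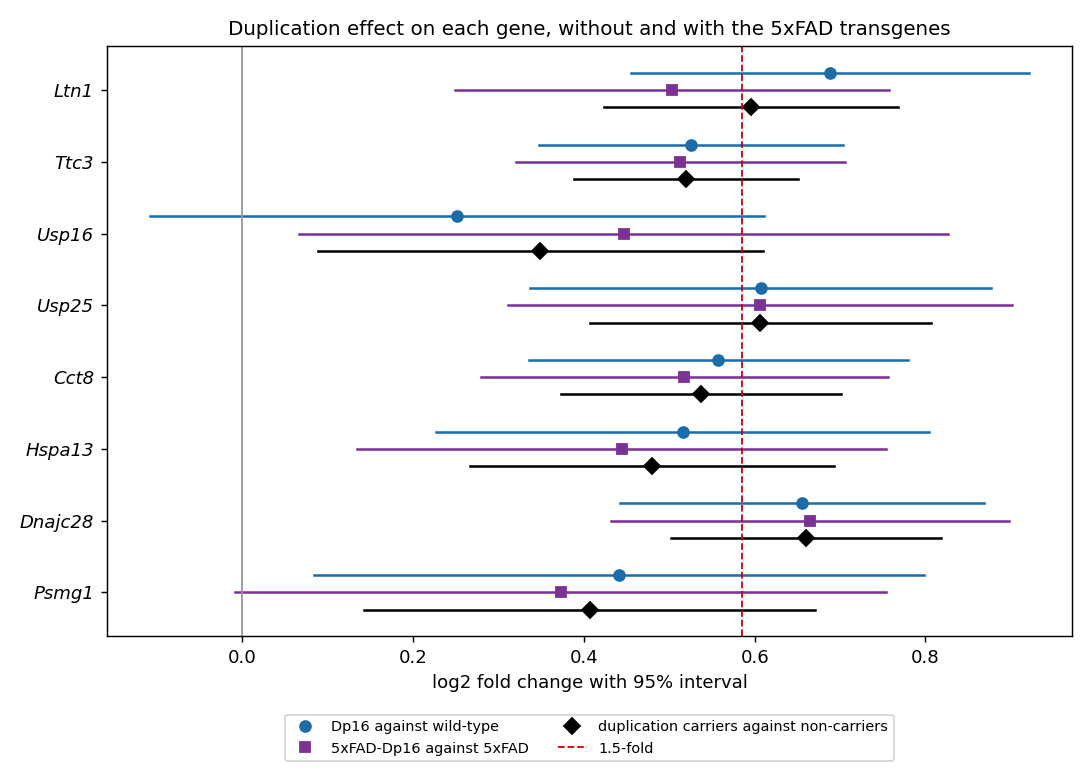
Log2 difference with its 95% interval (horizontal axis) for each of the 8 genes in Dp16 against wild-type (circles), 5xFAD-Dp16 against 5xFAD (squares) and both pooled (diamonds); the dashed line marks 1.5-fold and the grey line no change. All 8 pooled intervals hold 1.5-fold, and Usp16 in Dp16 (-0.11 to 0.61) and Psmg1 in 5xFAD-Dp16 (-0.01 to 0.75) have the intervals that reach past no change.

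The cross of both models differed from wild-type in 4 of the 8 genes, against 0.983% of all genes called higher in that comparison. Of the other 82 protein-coding genes tested in the segment, 22 were called higher too. Ltn1 was higher by 0.54 ± 0.12 (adjusted p = 0.0406), Ttc3 by 0.44 ± 0.09 (0.0267), Usp25 by 0.60 ± 0.14 (0.0488) and Cct8 by 0.54 ± 0.11 (0.0311; log2 with SE, edgeR). The largest difference was that of Usp16, 0.73 ± 0.18, with an adjusted p of 0.0987. All 8 had an unadjusted p under 0.05, against 5% of all genes in the same direction. In 6 of the 8 genes, Usp16 among them, the groups did not overlap, against 3.08% of all genes. This comparison shares its wild-type libraries with Dp16 against wild-type. No gene of the 8 passed without wild-type replicate 1, 2 or 3, without Dp16 replicate 3 or without 5xFAD-Dp16 replicate 1, 2 or 4; 1 passed without Dp16 replicate 2, and 2 passed without Dp16 replicate 1, 5xFAD-Dp16 replicate 3 or 5xFAD replicate 2 or 3.

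The 5xFAD transgenes moved none of the 8 genes past the threshold. In 5xFAD against wild-type 0 of 8 passed in edgeR, against 0.971% of all genes, and 0 of 8 passed in DESeq2. The differences ran from -0.23 for Dnajc28 (95% interval -0.45 to -0.02, unadjusted p = 0.0357, adjusted p = 0.525 in edgeR) to 0.28 for Usp16 (-0.08 to 0.64), and Dnajc28 had the only unadjusted p under 0.05, against 8.85% of all genes. In 5xFAD-Dp16 against Dp16 again 0 of 8 passed in edgeR and in DESeq2, against 0.845% of all genes in edgeR. There Usp16 was at 0.47 (0.08 to 0.87, unadjusted p = 0.0212, adjusted p = 0.451 in edgeR), the only one of the 8 under an unadjusted p of 0.05, against 8.57% of all genes. Dnajc28 was at -0.22 (-0.45 to 0.01). Females and males did not differ past the threshold in any of the 8 genes in edgeR or DESeq2, against 0.048% of all genes in edgeR, with differences from -0.08 for Psmg1 to 0.06 for Usp16 and none under an unadjusted p of 0.05, against 5.84% of all genes.

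Levels between genes can be compared per length. In the deposited RPKM (reads per kilobase of gene, scaled to the library total), the order in wild-type hippocampi was Ttc3 at 83.5 ± 10.3, Cct8 at 76.9 ± 14.7, Hspa13 at 12.5 ± 3.39, Psmg1 at 11.8 ± 3.19, Usp25 at 8.38 ± 1.11, Ltn1 at 5.64 ± 0.362, Usp16 at 4.53 ± 0.928 and Dnajc28 at 4.52 ± 0.524 RPKM (SD, n = 4). The RPKM ranges of Ttc3 and Cct8 overlapped, as did those of Hspa13, Psmg1 and Usp25. Those of Ltn1 (5.25 to 6.04 RPKM) and Dnajc28 (3.75 to 4.88 RPKM) were apart, with that of Usp16 reaching into both. Within each single wild-type library, Ttc3 was above Cct8, Hspa13 and Psmg1 were above Usp25, and Ltn1 was above Dnajc28. The order of Hspa13 and Psmg1, and of Usp16 against Ltn1 and Dnajc28, differed between wild-type libraries. In Dp16 hippocampi the order kept Ttc3 (116 ± 7.10), Cct8 (109 ± 8.41), Hspa13 (17.2 ± 1.70), Psmg1 (15.5 ± 1.84), Usp25 (12.4 ± 0.635) and Ltn1 (8.83 ± 0.435 RPKM), and Dnajc28 (6.91 ± 0.412) then stood above Usp16 (5.21 ± 1.20 RPKM).

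In the 4 libraries low in hippocampus genes, Cct8 lay above the remaining libraries of its group in 4 of 4 and Usp25 below them in 4 of 4. Ltn1 lay below in 3 of 4, and Usp16, Psmg1, Hspa13 and Ttc3 lay above in 3 of 4. Dnajc28 lay above in 2 of 4 and inside the range of the others in 2 of 4. The same counts were not taken over all genes. In wild-type replicate 4, the lowest in hippocampus genes, Psmg1 was at 15.8 CPM, against 10.2 to 11.5 CPM in the other 3 wild-type libraries, and Usp25 at 34.0 CPM, against 39.8 to 47.4 CPM. After removal of the group means, Pearson's r across the 16 libraries was 0.94 between Cct8 and Psmg1, 0.79 between Ltn1 and Usp25 and -0.86 between Usp25 and Psmg1, while that of Dnajc28 to the other 7 genes lay between -0.20 and 0.44. These coefficients describe libraries that also share their tissue content and depth.

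Leaving out these 4 libraries brought the pooled count to 7 of 8, since Hspa13 (0.61, adjusted p = 0.000478) and Psmg1 (0.56, adjusted p = 0.0209) also passed in edgeR, while Usp16 (0.40, adjusted p = 0.360) did not. That fit kept 3 5xFAD-Dp16, 2 5xFAD, 4 Dp16 and 3 wild-type libraries, and in it 53 of 17187 genes were called higher in carriers. With the hippocampus score as a further term of the fit over all 16 libraries the count was 7 as well, with 62 of 16684 genes called higher, and Usp16 was at 0.42 with an adjusted p of 0.0539. In Dp16 against wild-type the count was 6 of 8 without the libraries, with 38 genes called higher in all, and 7 of 8 with the score as a term, with 45 in all. In 5xFAD-Dp16 against 5xFAD it was 1 without the libraries, with 10 genes called higher in all, and 6 with the score as a term, with 40 in all. The gene called without the libraries was Cct8 (edgeR adjusted p = 0.0469), while Dnajc28 lost its call there (0.72, adjusted p = 0.118). Both changes were chosen after the scores were seen.

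**Figure D4:**
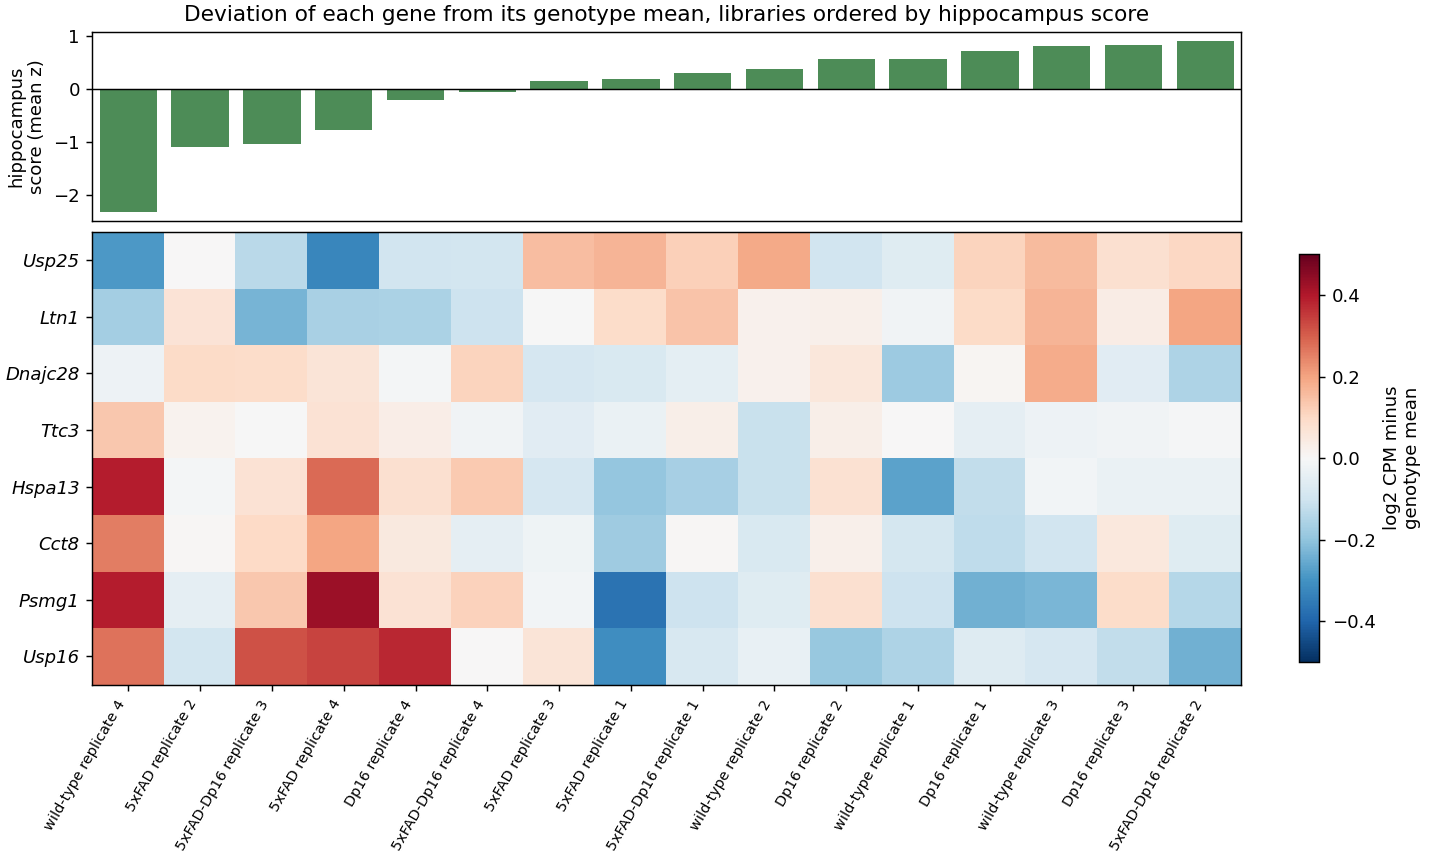
Deviation of each gene from the mean of its group (log2 CPM, color scale) in the 16 libraries, ordered from the lowest to the highest hippocampus score, which the bars above show as a mean z-score. Toward the left, where hippocampus genes are low, Usp25 and Ltn1 are mostly below and Hspa13, Cct8, Psmg1 and Usp16 mostly above their group means.

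The genes whose log2 CPM was most like that of each of the 8 across the 16 libraries came almost wholly from the same segment. With the 3 highest Pearson coefficients taken for each gene, 1 name lay outside it: the coat color gene a, with r of 0.959 to Ttc3. Closest to Ltn1 was Dyrk1a (0.958), to Ttc3 Rcan1 (0.966), to Usp16 Sod1 (0.863), to Usp25 Gabpa (0.967), to Cct8 Ttc3 (0.953), to Hspa13 Hmgn1 (0.951), to Dnajc28 C2cd2 (0.933) and to Psmg1 Wrb (0.943). The genes share the libraries, their depth and the difference in copy number between groups, so the coefficients are descriptions.

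The partners and relatives of the 8 genes outside the segment did not move past the threshold with the duplication. In 14 lists of such genes, 217 different genes were tested, none of them in the segment, and 0 were called between carriers and non-carriers, between Dp16 and wild-type or between 5xFAD-Dp16 and 5xFAD in edgeR or in DESeq2. Few genes passed at all in edgeR: of 16684, 35 were called higher and 4 lower in the pooled comparison. The 35 include 5 of the 8 and 27 of the other 82 protein-coding genes of the segment. In Dp16 against wild-type 14 genes passed and in 5xFAD-Dp16 against 5xFAD 9. With so few calls, 0 of 217 does not set these lists apart from other genes. The pooled median over the 217 genes was -0.03 (log2), against -0.01 over all genes, of which 7918 of 16684 had a positive difference.

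For the ligase Ltn1, 20 genes of ribosome quality control had a pooled median of -0.01, and Rack1, a ribosomal scaffold protein, had the smallest p (-0.26 ± 0.13 log2, unadjusted p = 0.0620). Akt2, a kinase of the family that Ttc3 acts on, was at 0.13 ± 0.09 (log2, SE; edgeR adjusted p = 0.949). Of 44 ubiquitin-specific proteases related to Usp16 and Usp25, Usp22, a deubiquitinase of the SAGA complex, was at 0.18 ± 0.07 and Usp40 at -0.21 ± 0.11 (log2 with SE; edgeR adjusted p = 0.949 for both). Of 11 genes that place or remove ubiquitin on histone H2A, the counterparts of Usp16, the Polycomb subunit Bmi1 was at -0.16 ± 0.07 (edgeR adjusted p = 0.949).

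The other subunits and helpers of TRiC, the complex of Cct8, had a negative pooled difference in 14 of 15 cases, with a median of -0.10, and none was called. All 14 genes of the 20S proteasome core were negative as well (median -0.15, range -0.22 to -0.07), as were 15 of 18 of the 19S regulator (median -0.07) and 6 of 7 proteasome assembly chaperones, the partners of Psmg1 (median -0.10). Psmg2, the direct partner of Psmg1, was at -0.20 ± 0.10 (log2, SE; edgeR adjusted p = 0.949), with 10.9 ± 1.61 CPM in 5xFAD-Dp16 and 13.7 ± 2.27 CPM in 5xFAD, and 10.2 ± 0.802 CPM in Dp16 and 10.6 ± 0.998 CPM in wild-type hippocampi (SD, n = 4). In 5xFAD against wild-type, which shares both of its groups with the pooled contrast, the same TRiC list had 15 of 15 positive differences (median 0.13) and the 20S core 14 of 14 (median 0.17), again with none called. The negative medians were kept under the other scalings, but without the 4 libraries low in hippocampus genes TRiC had 8 of 15 negative (median -0.004) and the 20S core 7 of 14 (median -0.01). In that fit the 19S regulator had 9 of 18 negative (median -0.002) and the assembly chaperones 4 of 7 (median -0.02). Without the same libraries, 5xFAD against wild-type compared 2 with 3 libraries. It had 10 of 15 positive differences in the TRiC list (median 0.04) and 8 of 14 in the 20S core (median 0.06). With the hippocampus score as a term over all 16 libraries, the pooled difference was negative in 13 of 15 TRiC genes (median -0.04). It was negative in 13 of 14 genes of the 20S core (median -0.07), 12 of 18 of the 19S regulator (median -0.02) and 5 of 7 assembly chaperones (median -0.01). With that term, 5xFAD against wild-type had 14 of 15 positive differences in the TRiC list (median 0.08) and 12 of 14 in the 20S core (median 0.10).

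In edgeR, 1 of the 217 genes of the lists passed in both comparisons of a group with the 5xFAD transgenes against wild-type. None passed in 5xFAD-Dp16 against Dp16. Over all genes, edgeR called 0.971% in 5xFAD against wild-type and 0.845% in 5xFAD-Dp16 against Dp16. In 5xFAD-Dp16 against wild-type 0.983% of all genes were called higher. The lists were thus not richer in edgeR calls than all genes. DESeq2 called 2 immunoproteasome genes and 1 ubiquitin-specific protease in 5xFAD against wild-type, 1 of each in 5xFAD-Dp16 against wild-type, and in 5xFAD-Dp16 against Dp16 1 immunoproteasome gene higher and 1 ubiquitin-specific protease lower. Psmb8, a catalytic subunit of the immunoproteasome, which replaces its constitutive counterpart in inflamed tissue, had 7.07, 9.99, 6.69 and 8.31 CPM in 5xFAD-Dp16, 8.56, 8.24, 7.77 and 9.71 CPM in 5xFAD, 4.83, 4.52, 3.97 and 4.03 CPM in Dp16, and 2.43, 3.14, 3.52 and 6.29 CPM in wild-type. Both groups with the transgenes lay above both groups without them. In 5xFAD against wild-type it was higher by 1.18 ± 0.23 (log2, SE), or 2.26-fold (edgeR adjusted p = 0.0161), and in 5xFAD-Dp16 against wild-type by 1.18 ± 0.25 (adjusted p = 0.0342). In 5xFAD-Dp16 against Dp16 Psmb8 was at 0.99 (log2; adjusted p = 0.0896 in edgeR and 0.0139 in DESeq2). The call in 5xFAD against wild-type ended without wild-type replicate 1, 2 or 3, in males only and in a fit of the 2 groups alone, with an adjusted p of up to 0.201. The call in 5xFAD-Dp16 against wild-type ended in 10 of 29 alternatives, among them without wild-type replicate 1, 2 or 3, 5xFAD-Dp16 replicate 1, 2 or 4, Dp16 replicate 1 or 3 or 5xFAD replicate 3, with an adjusted p of up to 0.218. Psmb9, another immunoproteasome subunit, was at 0.93 ± 0.23 (log2, SE; edgeR adjusted p = 0.0861) and the interferon-induced protease Usp18 at 1.63 ± 0.42 (adjusted p = 0.108) in 5xFAD against wild-type. A list of 12 microglia genes summed to 916 to 1017 CPM in 5xFAD-Dp16, 1048 to 1494 CPM in 5xFAD, 471 to 512 CPM in Dp16 and 492 to 617 CPM in wild-type libraries, and its part in these differences was not tested.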

How the data were processed

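The authors deposited raw read counts per gene and RPKM values, whose ratio to the counts gave a single length per gene in 27505 of 27505 genes checked (relative tolerance 1e-06). Per the submitters' processing notes, bcl2fastq, FastQC 0.11.5, HISAT2 2.1.0, SAMtools 1.5 and HTSeq 0.6.1 were used with GRCm38. Genes are named as in the files. Coordinates are those of GENCODE for 55144 of 55385 identifiers. RPKM was used for levels between genes only.

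The counts were fitted with edgeR 4.0.16 (R 4.3.3): default filter for the 4 groups, TMM scaling, robust quasi-likelihood, 1 term per genotype and 1 for sex, all 16 libraries. Calls are Benjamini-Hochberg adjusted p under 0.05 over 16684 genes. Log2 CPM used a prior count of 2. Intervals use the test's degrees of freedom. The steps were tested on simulated data. Alternatives used DESeq2 1.42.0, limma 3.58.1, other scalings, filters, samples and terms. Depth was 15838097 to 25037769 counts a library, and no pair of libraries held identical values. The alternatives that use the hippocampus score were chosen after seeing the data.

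The 8 genes and the lists were chosen with earlier results of these data known. Named genes are the 8 and, not exhaustively, up to 2 genes with the smallest p per list and comparison, the 3 most alike genes per member, App and Cst7, and overlapping genes. Of the genes so selected, 1 is not reported here.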

Additional observations from a re-analysis of the deposited data

Results flagged for a closer look

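In groups of 4 libraries, a value was singled out where its gap to the nearest other value, divided by the range of the group, was above Dixon's critical value of 0.829. Of 32 groups checked (8 genes in 4 genotypes) 3 had such a value, and chance gives about 1 in 20 groups. Cct8 was at 246 CPM in Dp16 replicate 1, against 274 to 279 CPM in the other 3 Dp16 libraries. Psmg1 was low in the same library, at 13.995 CPM against 17.4 to 17.6 CPM. Cct8 was at 218 CPM in wild-type replicate 4, against 170.5 to 173 CPM in the other 3 wild-type libraries. That wild-type library is also the lowest in hippocampus genes, and the part of tissue content in its Cct8 level was not tested.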

How the results depend on the processing

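No difference of the 8 genes between carriers and non-carriers changed sign under any alternative, and the pooled count of 5 became 1 in males only and was 5 to 6 without single libraries. Apart from leaving out single libraries, Hspa13 was called in the pooled comparison in 8 of 12 alternatives, DESeq2 among them. RLE and upper-quartile scaling, limma-voom and males only did not call it. In Dp16 against wild-type the count of 3 was 5 in DESeq2, 6 without a filter on low counts, 0 in males only, 0 in a fit of the 2 groups alone, 6 without the libraries low in hippocampus genes, 7 with the hippocampus score as a term, and 0 to 4 without single libraries. Without libraries high in midbrain genes, Ttc3 and Dnajc28 lost their calls in Dp16 against wild-type, Ltn1 kept its call, and Cct8 was called. In 5xFAD-Dp16 against 5xFAD the count of 1 was 3 in DESeq2, 2 without the filter, in limma-voom, without the term for sex and with midbrain and choroid plexus scores as terms, 6 with the hippocampus score, 0 in males only, in the 2 groups alone and without libraries high in midbrain genes, and 0 to 1 without single libraries. In 5xFAD-Dp16 against wild-type the count of 4 was 2 with RLE scaling, in limma-voom and without libraries high in midbrain genes. It was 1 in males only, 0 in the 2 groups alone, and 0 to 5 without single libraries. DESeq2 called the 4 and also Usp16 and Dnajc28. Usp16 and Hspa13 joined the 4 without the libraries low in hippocampus genes and with the hippocampus score as a term. Without the filter Usp16 and Hspa13 were called as well, but Ttc3 was not. The deviations of same-numbered libraries had a median correlation of -0.01 over 24 pairs, 11 of them over 0.1. Over the 72 pairs with different numbers the median was -0.03, with 25 over 0.1. With the replicate number as a block the counts were 6 in Dp16 against wild-type, 0 in 5xFAD-Dp16 against 5xFAD, 6 pooled and 6 in 5xFAD-Dp16 against wild-type. Males only and the fits of 2 groups have fewer libraries; for the other settings the cause was not tested. Over all genes the pooled count of 39 was 74 in DESeq2, 179 without the filter, 11 in males and 67 with the hippocampus score. The 14 genes in Dp16 against wild-type became 38, 210, 0 and 46, and the 9 in 5xFAD-Dp16 against 5xFAD became 25, 75, 0 and 41, in the same settings. The pooled count over all genes was 56 without the libraries low in hippocampus genes. Each of the 8 genes had at least 150 counts in every library, and each group had 4 libraries.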

Other observations

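Genes of the unfolded protein response, which raises chaperone levels when proteins misfold in the endoplasmic reticulum, did not pass the test between carriers and non-carriers. Of 20 tested, 17 had a negative pooled difference, with a median of -0.09 (log2). Over all 16684 genes, 7918 had a positive pooled difference, with a median of -0.01. Manf, a secreted factor induced by such stress, had 48.1 ± 4.81 CPM in 5xFAD-Dp16 and 56.5 ± 6.31 CPM in 5xFAD, and 44.2 ± 3.36 CPM in Dp16 and 55.9 ± 4.42 CPM in wild-type hippocampi (SD, n = 4). Its pooled difference was -0.26 ± 0.07 (log2, SE; edgeR unadjusted p = 0.00311, adjusted p = 0.490). Hspa5, the main Hsp70 chaperone of the endoplasmic reticulum, was at -0.23 ± 0.09 (adjusted p = 0.949). In 5xFAD against wild-type, Edem1, which targets misfolded glycoproteins for degradation, was at 0.41 ± 0.14 (adjusted p = 0.330) and the stress-induced transcription factor Ddit3 at 0.33 ± 0.12 (adjusted p = 0.387).

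The cytosolic heat shock list had 8 of 15 genes with a positive and 7 with a negative pooled difference, and none passed. Hspa1b, an inducible Hsp70, was at 0.35 ± 0.23 and the small heat shock protein Hspb1 at -0.29 ± 0.20 (log2, SE; edgeR adjusted p = 0.949 for both). Among 37 J-domain proteins, the relatives of Dnajc28, 20 were negative, and Dnajc6, which uncoats clathrin vesicles in neurons, was at 0.16 ± 0.08 (adjusted p = 0.949).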
